A study of Mus musculus with 2 samples.

Results

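C1q-positive cells are the small set of cells in these cultures that held transcripts of complement component C1q. They were selected on their own counts: a cell counted as C1q-positive when C1qa, C1qb and C1qc together gave 2 or more UMIs (unique molecular identifiers, that is, counted RNA molecules), in a cell with at least 200 detected genes, under 10% mitochondrial UMIs and at least 2000 UMIs. The rule found 97 cells among the 2613 cells that passed the other 3 filters, out of 3773 deposited barcodes. They comprised 70 of 1429 DMSO cells and 27 of 1184 Selinexor cells. The working name for them was macrophage-like. Summed levels of dendritic genes were raised in them along with those of macrophage genes, as described below, so they are called C1q-positive cells here.

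The study grew mouse myeloid-derived suppressor cells (MDSC), immature myeloid cells that restrain T cells, in vitro for 4 days with recombinant IL-6 and GM-CSF at 40 ng/mL each. The DMSO group received the vehicle and the Selinexor group 50 nM Selinexor, a small molecule that blocks the nuclear export receptor exportin 1, encoded by Xpo1. Cells carrying surface-bound feature barcodes were sorted as live and CD11b-positive, and were then pooled and captured on the 10x Genomics platform. Strain, genotype, age and the number of animals behind each culture are not given in the labels. Each group is 1 library, so no difference between DMSO and Selinexor has a replicate check and no test was made. Cells of 1 library are not replicates of a treatment, and every interval below is a 95% interval that covers counting error only.

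C1q is assembled from the products of 3 neighbouring genes, and it starts the classical complement pathway by binding antibody and cell surfaces. Unlike most complement proteins it is made mainly by macrophages and by some dendritic cells, where it also tags dying cells for uptake. Macrophages and dendritic cells both grow from bone marrow cells in GM-CSF cultures. Both can present antigen on MHC class II, whose transcription depends on the coactivator CIITA.

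The 3 C1q genes lie side by side on the minus strand of mouse chromosome 4 (mm10, GENCODE M21): C1qb at chr4:136880129-136886187, C1qc at chr4:136889804-136893065 and C1qa at chr4:136895917-136898803. The class II genes H2-Ab1 (chr17:34257689-34269419, plus strand), H2-Aa (chr17:34282744-34287823, minus strand) and H2-Eb1 (chr17:34305867-34316674, plus strand) form a second neighbourhood on chromosome 17. Asgr2, a C-type lectin subunit, lies at chr11:70092644-70106187 on the plus strand. Promoters of genes from both neighbourhoods are shown as a description. C1q counts chose the cells, so high C1q genes in the same cells follow from the rule. The class II genes were not part of the rule. RefSeq promoter entries, reaching from 250 bases before to 50 bases after the start, were found for 4 of 6 genes looked up, and none is printed for C1qa or H2-Ab1. Capitals mark GAGGAA, the core bound by the myeloid factor PU.1, read on either strand (TTCCTC in C1qc is its reverse complement), in the C1q promoters. In the class II promoters they mark CTGATTGG, the Y box bound by NF-Y.
C1qb promoter, GRCm38.p6 chr4:136886151-136886450, minus strand: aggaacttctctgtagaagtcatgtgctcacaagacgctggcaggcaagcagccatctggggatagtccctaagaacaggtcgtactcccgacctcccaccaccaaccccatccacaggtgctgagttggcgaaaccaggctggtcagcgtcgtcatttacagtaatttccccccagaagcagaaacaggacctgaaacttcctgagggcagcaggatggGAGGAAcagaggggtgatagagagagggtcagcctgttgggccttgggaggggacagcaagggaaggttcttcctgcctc
C1qc promoter, GRCm38.p6 chr4:136892865-136893164, minus strand: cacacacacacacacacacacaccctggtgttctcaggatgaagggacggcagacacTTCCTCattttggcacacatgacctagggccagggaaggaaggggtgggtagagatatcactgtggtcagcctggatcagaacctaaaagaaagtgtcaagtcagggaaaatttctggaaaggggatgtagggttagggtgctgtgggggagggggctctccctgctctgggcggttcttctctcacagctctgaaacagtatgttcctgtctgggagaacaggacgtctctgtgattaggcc
H2-Aa promoter, GRCm38.p6 chr17:34287774-34288073, minus strand: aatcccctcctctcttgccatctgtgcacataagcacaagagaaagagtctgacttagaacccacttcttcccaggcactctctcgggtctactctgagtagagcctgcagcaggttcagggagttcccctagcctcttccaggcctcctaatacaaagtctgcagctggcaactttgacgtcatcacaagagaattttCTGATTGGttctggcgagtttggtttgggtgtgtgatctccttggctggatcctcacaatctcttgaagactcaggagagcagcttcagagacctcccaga
H2-Eb1 promoter, GRCm38.p6 chr17:34305617-34305916, plus strand: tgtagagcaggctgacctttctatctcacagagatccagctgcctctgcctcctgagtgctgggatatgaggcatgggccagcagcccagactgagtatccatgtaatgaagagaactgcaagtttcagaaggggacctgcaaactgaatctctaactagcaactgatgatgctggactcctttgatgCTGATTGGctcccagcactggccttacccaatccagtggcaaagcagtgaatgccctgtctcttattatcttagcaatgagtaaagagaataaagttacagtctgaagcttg
GAGGAA began 30 bases upstream of the start in C1qb and 193 bases upstream in C1qc. It occurs on either strand in 28.3% of 32851 promoters of this length. CTGATTGG began 51 bases upstream in H2-Aa and 62 bases upstream in H2-Eb1, and it occurs on either strand in 4.10% of the same promoters. A match is a description of the letters and not a measured binding site.

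The C1q-positive cells were sequenced at similar depth in both libraries. Their summed counts were 872616 UMIs in DMSO and 328913 UMIs in Selinexor, so that 1 UMI equals 1.15 and 3.04 CPM (counts scaled to a common total over the cells summed). A gene at 0 UMIs could reach up to 3.44 and 9.12 CPM (3 counts). The median C1q-positive cell held 12028.5 UMIs in DMSO (range 4150 to 27078) and 11645 UMIs in Selinexor (range 6444 to 21392), against 9068 and 9939 UMIs in the other cells. The median mitochondrial share of UMIs was 2.55% and 3.09% in C1q-positive cells, close to 2.46% and 3.06% in the other cells. All 70 DMSO cells shared 1 most abundant tag, and all 27 Selinexor cells shared another. It made up a median of 91.9% and 94.7% of tag UMIs, and at least 62.9% and 83.1%. The libraries shared 0 barcodes. How barcodes were assigned to libraries was not stated in the sources. If these tags assigned them, both observations would follow by construction, so they are no check of the libraries. No doublet caller was run on these cells.

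C1q transcripts were both more frequent and more abundant in the DMSO cells. The share of C1q-positive cells was 4.90% in DMSO (Clopper-Pearson interval 3.84% to 6.15%) and 2.28% in Selinexor (1.51% to 3.30%). With every cell thinned to 2000 UMIs the shares were 2.87% and 0.507%, from 41 and 6 cells. Within the C1q-positive cells the 3 genes together gave 2 to 105 UMIs per cell in DMSO, with a median of 11.5, and 2 to 32 UMIs in Selinexor, with a median of 5. The ranges overlap, but 40 of 70 DMSO cells (57.1%) and 3 of 27 Selinexor cells (11.1%) held 10 or more C1q UMIs. These counts chose the cells, so they describe the set and support nothing about it.

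**Figure D1:**
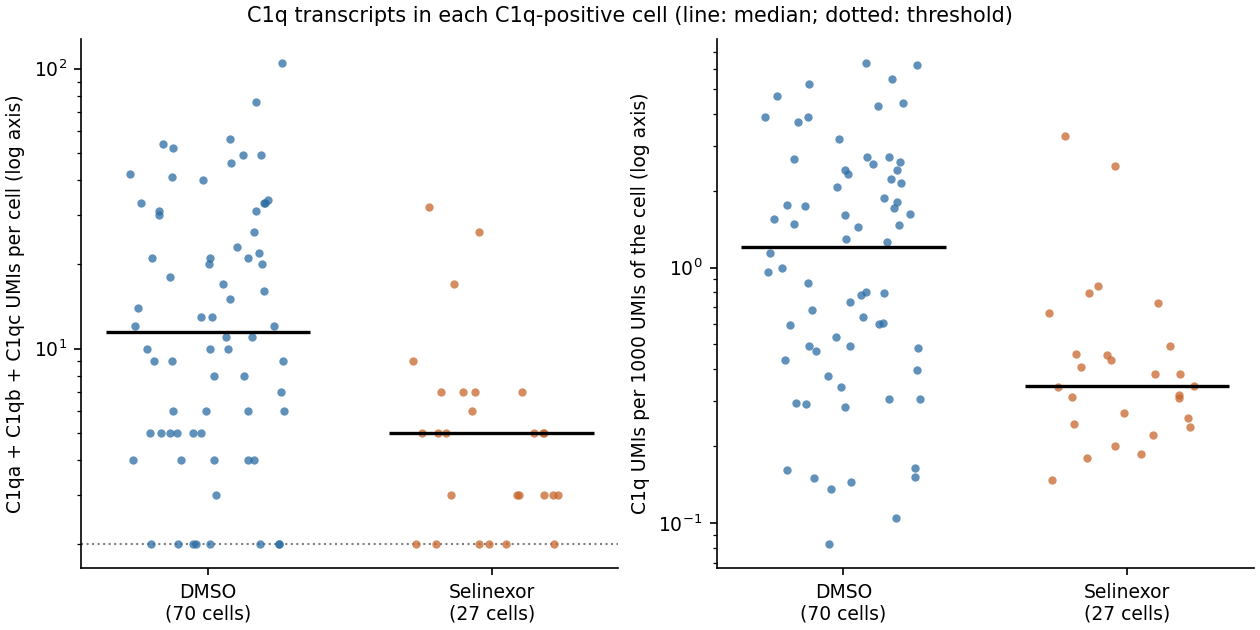
Each point is 1 C1q-positive cell; the left plot gives its summed C1qa, C1qb and C1qc UMIs and the right plot the same per 1000 UMIs of the cell, both on log axes, with the median as a line and the threshold of 2 UMIs dotted. Medians are 11.5 (DMSO) and 5 (Selinexor) UMIs per cell, and 1.20 and 0.343 per 1000 UMIs.

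All 3 C1q genes were detected together in 45 of 70 DMSO cells and 9 of 27 Selinexor cells. Another 13 cells in each library held 2 of the genes, and 12 and 5 cells held 1 gene. C1qa, which encodes the A chain, gave 427 UMIs in DMSO and 32 UMIs in Selinexor (489 and 97.3 CPM). C1qb gave 621 and 106 UMIs (712 and 322 CPM), and C1qc 286 and 40 UMIs (328 and 122 CPM). The Selinexor minus DMSO log2 difference was thus -2.22 for C1qa, -1.12 for C1qb and -1.36 for C1qc on the log2(CPM + 10) scale used for all differences below. This scale understates differences of genes with few counts.

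Just inside the threshold, 8 DMSO cells and 6 Selinexor cells held exactly 2 C1q UMIs. Just outside it, 31 and 37 cells held 1 UMI. C1q-positive cells held 97.7% of all C1q UMIs of the DMSO library and 82.8% of those of the Selinexor library. Cells with abundant primary granule transcripts (Elane, Mpo, Prtn3 and Ctsg together at 10 or more UMIs), early neutrophil precursors that should lack C1q, gave the background. Of these, 0 of 144 in DMSO and 0 of 73 in Selinexor held 2 C1q UMIs, which allows shares of up to 2.08% and 4.11%. A single C1q UMI was present in 0 of 144 and 2 of 73 of them, at median depths of 13790.5 and 14808 UMIs, above those of the C1q-positive cells. The Selinexor share of 2.28% lies below its limit of 4.11%, so at this depth the background count alone does not set it apart from free RNA.

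Macrophage and dendritic genes were both higher in C1q-positive cells than in the other cells. A macrophage panel of 20 genes, which left out C1q, summed to 2280 CPM in DMSO C1q-positive cells and 605 CPM in the other cells, a ratio of 3.77 (3.58 to 3.96). In Selinexor the same panel gave 1207 against 623 CPM, a ratio of 1.94 (1.75 to 2.15). A dendritic panel of 20 genes gave 2548 against 586 CPM in DMSO, a ratio of 4.34 (4.14 to 4.55), and 1915 against 758 CPM in Selinexor, a ratio of 2.53 (2.33 to 2.74). The largest ratios belonged to class II: H2-Aa, H2-Ab1, H2-Eb1 and Cd74 together were 9.81-fold higher in DMSO (9.59 to 10.0) and 5.52-fold higher in Selinexor (5.30 to 5.75). The other cells are a mixture, and the neutrophil genes S100a8 and S100a9 gave a median of 961 UMIs per cell in DMSO and 237 UMIs in Selinexor there, against 16.5 and 16 UMIs in C1q-positive cells.

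Single cells carried both panels. With every cell thinned to 2000 UMIs, 52 of 70 DMSO cells (74.3%) and 15 of 27 Selinexor cells (55.6%) held UMIs of both panels, against 31.3% and 24.0% of the other cells. Macrophage genes without dendritic genes were seen in 15 and 9 C1q-positive cells, and dendritic genes alone in 2 and 2 cells. Unthinned, both panels were detected in 65 of 70 and 25 of 27 cells. The dendritic panel includes Cd24a, detected unthinned in 75.7% and 59.3% of C1q-positive cells and in 84.4% and 65.7% of the other cells.

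Among macrophage genes, 11 of 16 measured in DMSO and 4 of 16 measured in Selinexor were at least 2-fold higher in C1q-positive cells and none was 2-fold lower, where measured means 20 or more UMIs over the cells compared. Over all genes the 2-fold higher share was 4.14% in DMSO and 1.55% in Selinexor, and the 2-fold lower share was 1.51% and 2.21%. Aif1, which encodes the actin-binding protein IBA1, was 2.93 higher on the log2 scale in DMSO and 2.86 higher in Selinexor. Its UMIs per C1q-positive cell ran from 0 to 13 (median 2) in DMSO and from 0 to 11 (median 0) in Selinexor. Csf1r, the receptor for the macrophage growth factor CSF1, was 1.33 and 0.84 higher, and it was detected in 69 of 70 and 23 of 27 cells.

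Phagocytic receptors were raised less evenly. Mrc1, the mannose receptor, was 2.22 higher in DMSO and 0.65 higher in Selinexor. Axl, a receptor for dying cells, was 2.49 and 0.89 higher, and its relative Mertk 1.58 and 0.66 higher from only 24 and 5 UMIs. Trem2 was 0.89 and 0.78 higher and Stab1 1.83 and 1.14 higher. The widely used macrophage surface gene Adgre1, which encodes F4/80, differed by 0.71 in DMSO and by -0.08 in Selinexor, and Cd68 by 0.46 and -0.45. Cd163, Siglec1 and Folr2, often used as markers of resident tissue macrophages, had 0 UMIs in the C1q-positive cells of both libraries.

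Of the dendritic panel, 9 of 17 measured genes in DMSO and 4 of 16 in Selinexor passed the 2-fold limit upwards in C1q-positive cells, and none passed it downwards. Of all measured genes 4.14% and 1.55% passed it upwards, and 1.51% and 2.21% downwards. Over measured genes the median of the dendritic panel was 1.002 higher in DMSO and 0.52 higher in Selinexor, against 1.70 and 0.67 for the macrophage panel. The dendritic panel sum rested mainly on Ccl17 and Mgl2, with 953 and 567 of its 2223 UMIs in DMSO and 126 and 265 of its 630 UMIs in Selinexor. In the other cells Cd24a gave 3681 of 7608 panel UMIs in DMSO and 2093 of 8827 in Selinexor. Cd24a differed by only 0.12 and -0.12 between C1q-positive and other cells, so the panel ratios depend in part on this gene. Ccl17, a chemokine that attracts T cells, was 2.96 and 2.50 higher. Mgl2, a galactose-binding lectin of dendritic cells that alternatively activated macrophages also express, was 3.40 and 2.96 higher and was detected in 46 of 70 and 16 of 27 cells. Clec10a, a close relative of Mgl2, was 1.88 and 2.10 higher, and Kmo, an enzyme of tryptophan breakdown, 2.37 and 1.84 higher. The integrin gene Itgax was 2.09 and 0.69 higher and Dpp4 1.22 and 0.96 higher, while Irf4 differed by 1.30 and -0.26.

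Genes that define dendritic cells more narrowly gave few UMIs, though some were more frequent than in the other cells. Flt3, the dendritic growth factor receptor, had 2 UMIs in DMSO and 0 in Selinexor. Zbtb46, a transcription factor of conventional dendritic cells, had 8 and 1 UMIs. It was detected in 8.57% and 3.70% of C1q-positive cells, against 0.957% and 1.73% of the other cells. Clec9a had 0 UMIs in both libraries, and Xcr1 had 1 and 0 UMIs. Cd209a, a lectin of monocyte-derived dendritic cells, gave 25 UMIs over 8 DMSO cells and 2 UMIs in 1 Selinexor cell. These cells were 11.4% and 3.70% of the C1q-positive cells, against 0.368% and 0.346% of the other cells with Cd209a. Ccr7, which guides mature dendritic cells to lymph nodes, was confined to 1 C1q-positive cell in each library, with 14 and 21 UMIs.

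**Figure D2:**
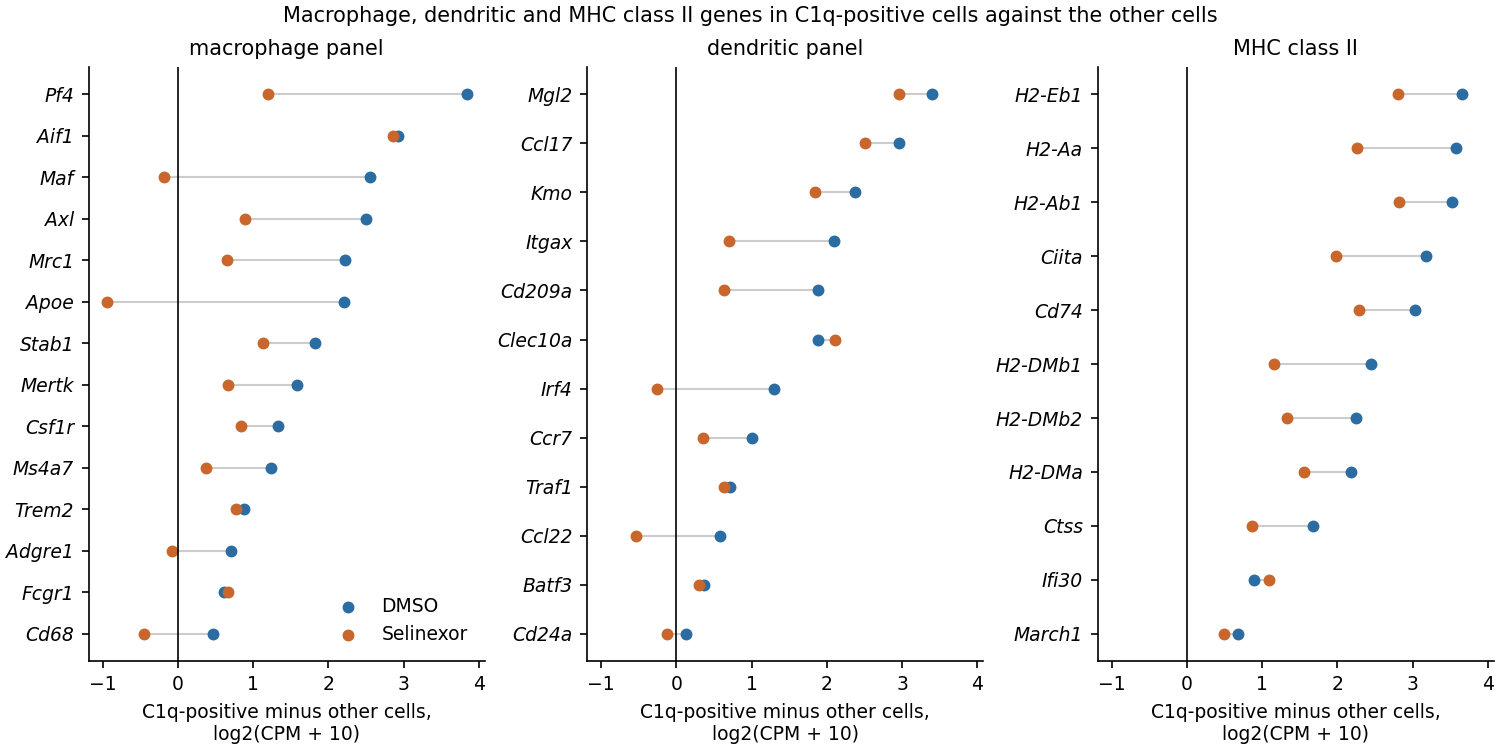
Points give, for genes of the macrophage panel, the dendritic panel and class II reported here with 20 or more UMIs over the C1q-positive cells of both libraries, the log2(CPM + 10) of C1q-positive cells minus that of the other cells, in DMSO (blue) and Selinexor (orange). In DMSO all plotted genes lie above 0, from 0.12 for Cd24a to 3.84 for Pf4; in Selinexor Apoe had 0 UMIs in C1q-positive cells, so its point depends on the pseudocount.

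Summed class II transcripts and those of their machinery were higher than in the mixture of other cells in both libraries. Of the MHC class II list, 10 of 13 measured genes in DMSO and 9 of 12 in Selinexor were higher by 2-fold or more. Of all measured genes 4.14% and 1.55% were. H2-Ab1, the class II beta chain gene, gave 0 to 134 UMIs per C1q-positive cell in DMSO (median 17.5) and 0 to 81 UMIs in Selinexor (median 1). It was detected in 55 of 70 and 15 of 27 cells, and it was 3.53 and 2.82 higher than in the other cells. H2-Ab1 was also detected in 20.8% and 22.3% of the other cells, so class II was not particular to C1q-positive cells. In Selinexor H2-Aa and H2-Eb1 were detected in 13 and 12 of 27 C1q-positive cells, each with a median of 0 UMIs. Ciita, the class II coactivator, was 3.18 and 1.98 higher. H2-DMa and H2-DMb1, which load peptides onto class II, were 2.19 and 2.45 higher in DMSO and 1.55 and 1.16 higher in Selinexor. Asgr2 was detected in 27 of 70 DMSO cells, with up to 34 UMIs in 1 cell, and in 7 of 27 Selinexor cells, with up to 2 UMIs. It was 3.13 and 1.14 higher than in the other cells.

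Besides C1q, panel and class II genes, 3 further genes were among the 15 most raised in both libraries. Mfge8, which bridges dying cells to phagocytes, was 2.90 and 2.30 higher, Plet1 3.54 and 2.08 higher and Gpr171 1.90 and 1.93 higher. At the other end stood neutrophil genes. S100a9 was lower by -3.83 and -5.66 and S100a8 by -3.54 and -4.62, and both encode the abundant calcium-binding proteins of neutrophils. The primary granule protease genes Elane (-4.46 and -3.20) and Prtn3 (-5.62 and -3.55), the specific granule genes Ngp (-3.52 and -6.27) and Lcn2 (-3.29 and -4.44), and Chil3 (-3.29 and -3.42) were lower as well. Stfa1, Serpinb1a and Cd177 complete the 10 lowest. Stfa1 and Serpinb1a had 0 UMIs in Selinexor C1q-positive cells, and Stfa1 shares sequence with near-identical stefin copies.

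Other classes of cells with fewer than 2 C1q UMIs placed these levels in context. Cells with 2 or more UMIs of Pf4 and Maf, of which there were 34 in DMSO and 12 in Selinexor, had a macrophage panel of 1948 and 1381 CPM but a dendritic panel of only 364 and 437 CPM. Fn1-high cells, with 5 or more Fn1 UMIs (71 and 393 cells), had 1425 and 893 CPM of the macrophage panel and 707 and 386 CPM of the dendritic panel. Cells with 3 or more UMIs of Ccr7 and Fscn1 (3 and 30 cells) were at 203 and 138 CPM of the macrophage panel and at 6661 and 11264 CPM of the dendritic panel. C1q-positive cells, at 2280 and 1207 CPM of the first and 2548 and 1915 CPM of the second, thus lay near the Pf4 or Maf cells in macrophage genes and between the other classes in dendritic genes. Pf4, Maf, Ccr7 and Fscn1 define classes and belong to the panels, so these levels are descriptions.

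C1q-positive cells differed widely among themselves in class II. The 4 class II genes ran from 0 to 672 UMIs per cell in DMSO (median 135.5) and from 2 to 342 UMIs in Selinexor (median 25). Per 1000 UMIs the medians were 12.8 and 2.04. A limit of 10 class II UMIs per 1000 UMIs, set after the values were seen, split the cells into class II high and class II low. It is a point on a range and not a cell type, and 16 of 70 and 3 of 27 cells lay within 2-fold of it. Class II high cells made up 37 of 70 in DMSO (52.9%, 40.6% to 64.9%) and 9 of 27 in Selinexor (33.3%, 16.5% to 54.0%), and these intervals overlap.

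The dendritic panel sum was higher in the class II high cells and the macrophage panel sum in the class II low cells. In DMSO the dendritic panel was at 4038 CPM in class II high and 959 CPM in class II low cells, and in Selinexor at 4206 and 851 CPM. The macrophage panel went the other way, with 1573 and 3035 CPM in DMSO and 958 and 1323 CPM in Selinexor. Not every macrophage gene followed its panel. Aif1 was 1.48 higher in class II high cells in DMSO (127 against 40 UMIs) and 2.70 higher in Selinexor (33 against 9 UMIs), and Axl was 0.36 and 0.34 higher. Csf1r, Fcgr1 and Adgre1 were nearly level in DMSO, at -0.11, 0.04 and -0.24 in class II high minus low cells. In Selinexor they were at -1.05, -1.79 and -0.90. The dendritic genes Ccr7 and Ccl22 were lower in DMSO class II high cells (0 against 14 and 4 against 21 UMIs). Ccl17 alone gave 893 dendritic panel UMIs in DMSO class II high cells. Across cells, the dendritic panel per UMI had a Spearman correlation with the 4 class II genes of 0.74 over 70 DMSO cells and 0.64 over 27 Selinexor cells. The macrophage panel had -0.41 and -0.33 with class II, and -0.34 and -0.33 with the dendritic panel. Granule transcripts moved with these panels. Their Spearman correlation in DMSO and Selinexor was -0.64 and -0.82 with the dendritic panel, -0.66 and -0.70 with class II, and 0.26 and 0.40 with the macrophage panel, and their part in the result was not tested. These correlations describe cells that share a library and a total to which all values are scaled.

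**Figure D3:**
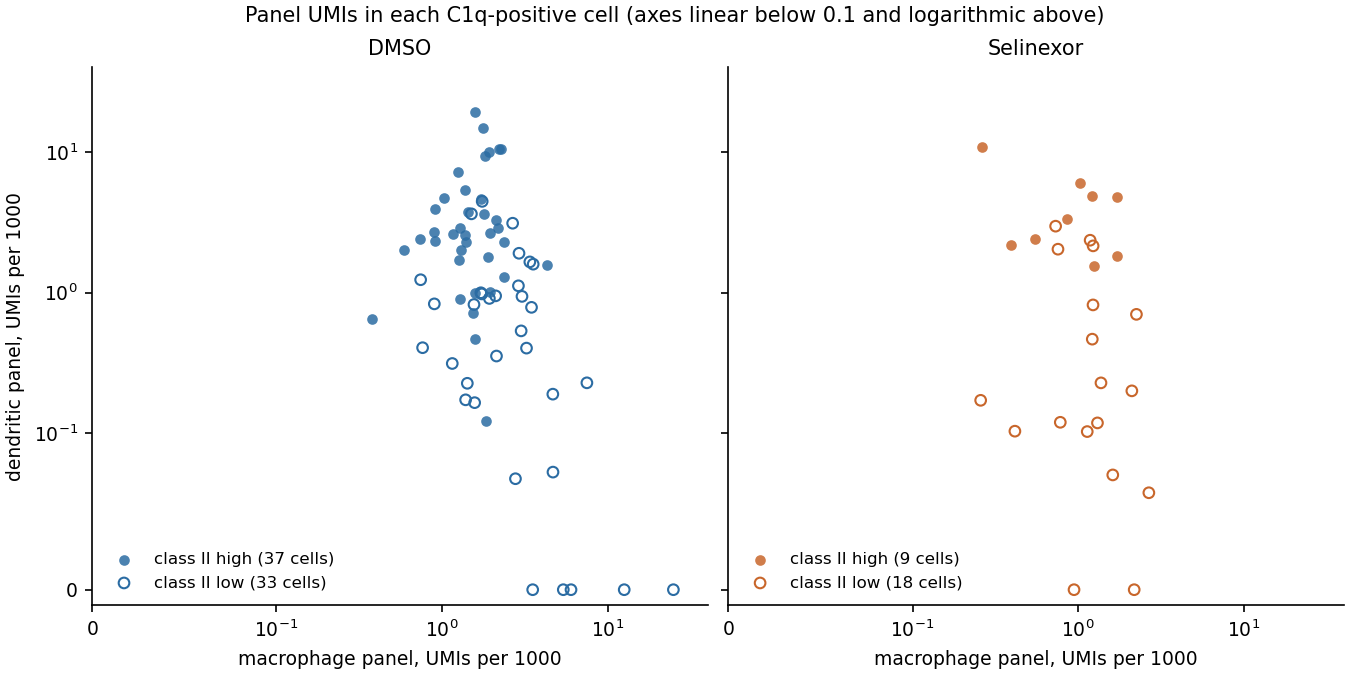
Each point is 1 C1q-positive cell, placed by its macrophage panel UMIs per 1000 (x) and dendritic panel UMIs per 1000 (y), with axes linear below 0.1 and logarithmic above; filled points hold 10 or more class II UMIs per 1000. Filled points (37 in DMSO, 9 in Selinexor) sit higher on the dendritic axis, and the cells at 0 on that axis are all class II low.

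Of 2393 genes measured in both libraries, 1.42% were at least 2-fold higher in class II high cells of both and 2.84% were at least 2-fold higher in class II low cells of both. With the 4 genes that made the split left aside, Ccl17 led the first, with 893 UMIs in class II high and 60 UMIs in class II low cells in DMSO, and 125 and 1 UMIs in Selinexor. Ciita followed with 175 and 10, and 28 and 4 UMIs, then Plet1, Mfge8, Il1r2 and H2-DMb1. In the second group F13a1, a coagulation factor subunit of monocytes, had 14 UMIs in class II high and 163 UMIs in class II low cells in DMSO, and 0 and 73 UMIs in Selinexor. Spp1, which encodes osteopontin, had 115 and 784, and 7 and 128 UMIs. Mmp8, a collagenase gene of neutrophil granules, had 131 and 630, and 21 and 419 UMIs. Saa3, Thbs1, Ccl4, Ccl3, Clec4e, Vcan, Nt5dc2, Cd93 and Lrp1 were higher in class II low cells too.

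Several macrophage genes came almost wholly from class II low cells in DMSO. Pf4, which encodes platelet factor 4 and is also made by some macrophages, had 252 of its 281 UMIs there. Maf, a transcription factor of resident macrophages, had 78 of 78 UMIs in class II low cells, from 11 cells. Apoe, the lipid carrier, had 41 of 42 UMIs, from 5 cells in all. Class II high cells in turn held 190 of 211 Asgr2 UMIs and 25 of 25 Cd209a UMIs. C1q itself was higher in class II high cells, with 2050 against 973 CPM in DMSO and 872 against 387 CPM in Selinexor.

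The share of class II high cells that were also C1q-positive differed between the libraries. It was 37 of 80 cells in DMSO (46.3%, 35.0% to 57.8%) and 9 of 62 cells in Selinexor (14.5%, 6.86% to 25.8%). Class II high cells as such were similarly frequent, at 5.60% of DMSO and 5.24% of Selinexor cells. The class II high cells with fewer than 2 C1q UMIs (43 and 53 cells) differed in mature dendritic genes: Ccr7 was at 16.3 CPM in DMSO and 465 CPM in Selinexor, and Ccl22 at 294 and 2681 CPM. Their median depths were 12743 and 12128 UMIs, close to 11919 and 10457 UMIs in the class II high C1q-positive cells.

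Selinexor against DMSO was then compared within the C1q-positive cells. Xpo1 (chr11:23256041-23298249, plus strand) gave 81 UMIs in DMSO and 70 UMIs in Selinexor, or 92.8 and 213 CPM, with 0 to 5 UMIs per cell in DMSO and 0 to 7 in Selinexor. The Selinexor minus DMSO difference was 1.12 (interval of the CPM ratio 0.71 to 1.68 in log2), and 1.45 in the other cells. With cells thinned to 2000 UMIs the difference in C1q-positive cells was 0.43. The per-cell ranges overlapped. Over 6273 genes measured in C1q-positive cells the median difference was -0.04, and it was 0.10 for the same genes in the other cells. Genes at least 2-fold higher in Selinexor numbered 61 (0.972%), and those 2-fold lower numbered 239 (3.81%). In the other cells, which hold far more UMIs, 43 and 23 of the same genes passed these limits.

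Macrophage genes were lower in the Selinexor C1q-positive cells. The panel sum was 1207 CPM in Selinexor and 2280 CPM in DMSO, a difference of -0.92 (-1.08 to -0.76), against 0.04 (-0.01 to 0.09) in the other cells. The median over 15 measured panel genes was -0.96, and 9 of them were lower by 1.5-fold or more while 0 were higher, where 13.2% of all measured genes were 1.5-fold lower and 6.42% higher. In the other cells the same 15 genes had a median of -0.22. Pf4 gave 281 UMIs over 25 DMSO cells, with up to 99 in 1 cell, and 7 UMIs over 3 Selinexor cells, a difference of -3.41 against -0.77 in the other cells. Maf gave 78 UMIs over 11 DMSO cells and 1 UMI in Selinexor, with a CPM ratio interval of -10.20 to -2.36 in log2. Apoe had 42 UMIs over 5 DMSO cells and 0 in Selinexor, at least 5.28-fold lower if the Selinexor cells are set at 3 counts in all. All 3 genes were thus carried by a minority of DMSO cells.

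More widely detected macrophage genes differed less. Cd68 was detected in 55 of 70 and 13 of 27 cells and differed by -1.81, against -0.90 in the other cells. Adgre1 differed by -1.15, Trem2 by -0.96 and Csf1r by -0.43. With cells thinned to 2000 UMIs the Csf1r difference turned to 0.76. Mrc1 and Axl, which were 1.34 and 1.64 higher in the other Selinexor cells, differed by -0.23 and 0.04 in C1q-positive cells. Asgr2 gave 211 UMIs in DMSO and 9 in Selinexor, a difference of -2.75 against -0.76 in the other cells.

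Dendritic genes were mixed. The panel differed by -0.41 (-0.54 to -0.28) in C1q-positive cells and by 0.37 (0.33 to 0.41) in the other cells. Its 12 measured genes had a median of -0.56, with 3 higher and 6 lower by 1.5-fold or more, against 6.42% and 13.2% of all measured genes. Ccl17 gave 953 UMIs over 29 DMSO cells and 126 UMIs over 9 Selinexor cells, a difference of -1.49, and -2.36 without the cell richest in it in each library. Without the members holding 5 or more granule UMIs, which left 8 and 4 members, it was 0.95. Itgax, which encodes the integrin CD11c, differed by -1.37 and Irf4 by -0.96. Clec10a differed by 1.06 and Mgl2 by 0.31. Ccl22 differed by 2.01, but 47 of its 48 Selinexor UMIs came from 1 cell, and without the richest cell of each library the value was -0.16. Ccr7 and Fscn1 came from 1 cell in each library.

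Class II was lower as well. The 4 genes summed to 8431 CPM in Selinexor and 14779 CPM in DMSO, a difference of -0.81 (-0.87 to -0.75), against 0.02 (-0.01 to 0.05) in the other cells. The class II list had a median of -0.78 over 11 measured genes, and 8 of them were lower by 1.5-fold or more and 0 higher. Of all measured genes 13.2% were lower and 6.42% higher by that limit. H2-Ab1 differed by -0.79, H2-Aa by -1.07, Cd74 by -0.78 and Ciita by -1.05. Most of these values were smaller without the members holding 5 or more granule UMIs, which left 8 and 4 members. H2-Ab1 was then at -0.02, H2-Aa at -0.34, Cd74 at -0.13 and the list median at -0.34. The protease gene Ctss, which trims the class II chaperone, was almost level at -0.02.

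The share of class II high cells differs between the libraries, so each class was also compared on its own. Among class II high cells the dendritic panel differed by 0.06 (-0.09 to 0.21), class II by -0.13 (-0.20 to -0.07) and the macrophage panel by -0.71 (-1.03 to -0.41). Among class II low cells the values were -0.17 (-0.43 to 0.08), -1.11 (-1.28 to -0.93) and -1.20 (-1.39 to -1.01). The macrophage panel sum was thus lower in Selinexor within both classes, while the intervals of the dendritic panel sum included 0 in both. The median dendritic gene differed by -0.025 in class II high and by -1.60 in class II low cells, where Ccl17 differed by -3.39 and Itgax by -1.60 but Mgl2 by 1.16 (116 and 141 UMIs). C1q, whose counts chose the cells, differed by -1.23 and -1.33. The class II genes made the split, so their values within each class are constrained by it. Those values, -0.13 and -1.11, describe the classes and cannot show whether class II differs between the libraries within them. The class II high comparison rests on 9 Selinexor cells.

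**Figure D4:**
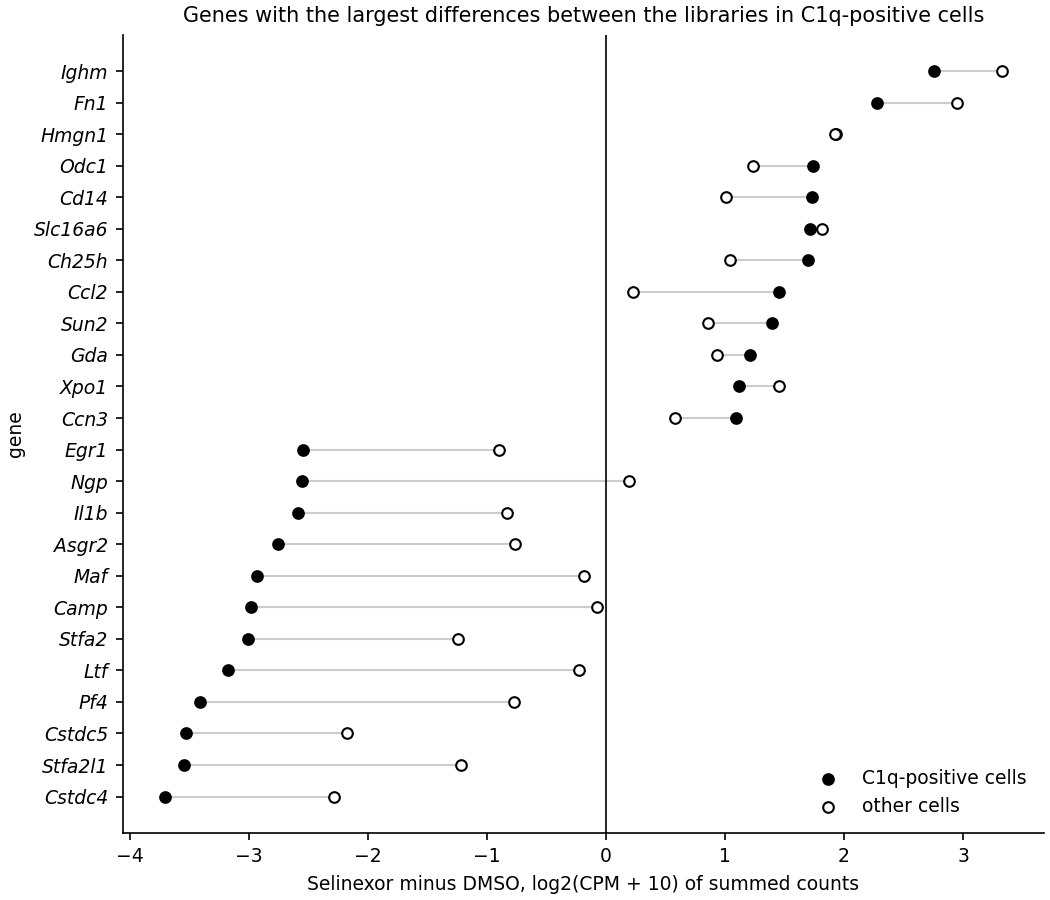
Filled points give Selinexor minus DMSO, log2(CPM + 10), in C1q-positive cells and open points the same in the other cells, for the 12 most raised and 12 most lowered genes by the naming rule. Fn1, Ighm and Hmgn1 were higher in both sets of cells, whereas Pf4, Maf and Asgr2 lie far lower in C1q-positive cells than in the others; Ltf had 0 Selinexor UMIs, so its point depends on the pseudocount.

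The 12 named genes that were higher in Selinexor C1q-positive cells were higher in the other Selinexor cells too. Of all 61 genes at least 2-fold higher, 24 were also at least 1.5-fold higher there, and of the 239 lower genes 45 were also 1.5-fold lower. For scale, 272 of all 6273 measured genes passed the 1.5-fold limit upwards in the other cells and 128 passed it downwards. Both overlaps are thus larger shares than those of all measured genes. Fn1, which encodes the matrix protein fibronectin, gave 133 UMIs over 29 DMSO cells and 256 UMIs over 20 Selinexor cells, a difference of 2.28 against 2.95 in the other cells. Ighm, the immunoglobulin mu heavy chain gene, gave 20 and 70 UMIs over 6 and 18 cells, a difference of 2.76 against 3.33. The other genes of the B cell list gave few UMIs, since the whole list of 11 genes, Ighm included, held 44 and 71 UMIs. Hmgn1, a nucleosome-binding protein gene, differed by 1.93 in C1q-positive cells and by 1.92 in the others.

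Cd14, the coreceptor for bacterial lipopolysaccharide, differed by 1.73 (45 and 64 UMIs) and Odc1, the first enzyme of polyamine synthesis, by 1.74 (64 and 88 UMIs). Slc16a6 and Sun2 differed by 1.71 and 1.39, and Gda and Ccn3 by 1.21 and 1.09. Ccl2, which attracts monocytes, differed by 1.45 against 0.23 in the other cells, from 41 UMIs over 16 DMSO cells and 48 UMIs over 6 Selinexor cells. With the C1q threshold at 5 UMIs its difference was -0.026. Ch25h, which makes 25-hydroxycholesterol, differed by 1.70 from 21 and 33 UMIs over 11 and 5 cells.

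The lowest values mixed macrophage, cytokine and neutrophil genes. Il1b, the interleukin 1 beta gene, gave 203 UMIs over 36 DMSO cells and 10 UMIs over 4 Selinexor cells, a difference of -2.59 against -0.83 in the other cells. Egr1, an immediate early transcription factor gene, gave 135 UMIs over 46 cells and 6 UMIs over 4 cells, a difference of -2.54 against -0.90. The stefin genes Cstdc4, Cstdc5, Stfa2 and Stfa2l1, whose near-identical copies make the assignment of UMIs uncertain, differed by -3.71, -3.53, -3.01 and -3.54. One DMSO cell held 747 of the 1215 Cstdc4 UMIs, and 228 of the 276 Cstdc5 UMIs came from 1 DMSO cell. Without the richest cell of each library the 4 values were -2.52, -1.55, -2.29 and -2.27. Cstdc5 was at -0.31 without members holding 100 or more S100a8 and S100a9 UMIs. The specific granule genes Camp and Ngp differed by -2.98 and -2.55, and 1 DMSO cell held 103 of 123 and 216 of 307 of their UMIs. Without the richest cell of each library the values were -1.03 and -1.12. Ltf gave 70 UMIs in DMSO and 0 in Selinexor, at least 8.79-fold lower.

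Neutrophil transcripts were unequal between C1q-positive cells of the libraries. S100a8 and S100a9 together ran from 5 to 2327 UMIs per DMSO cell (median 16.5) and from 9 to 194 UMIs per Selinexor cell (median 16), and 8 and 2 cells held 100 or more. The mature neutrophil list of 18 genes summed to 10575 CPM in DMSO and 2654 CPM in Selinexor, against 127989 and 81222 CPM in the other cells. Granule genes ran from 1 to 499 and from 2 to 103 UMIs per cell. Without the 8 and 2 cells, the median difference of the macrophage panel was -1.003 and that of class II -0.82. For 10 measured mature neutrophil genes it moved from -1.14 to -0.20, and for 9 specific granule genes from -1.65 to 0.13. Whether these cells are doublets was not tested.

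Lists of markers for other cell types were mostly near 0. The T cell list (11 genes) held 2 UMIs in DMSO and 0 in Selinexor, the NK cell list 4 and 0, the eosinophil list 2 and 0, and the erythroid list 14 and 6. The basophil and mast cell list held 18 and 9 UMIs, the stromal and endothelial list 33 and 10 and the plasmacytoid dendritic list 75 and 18. The megakaryocyte list held 283 and 7 UMIs, of which Pf4 made up 281 and 7.

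Most of the other lists also had medians below that of all genes. For the counts below, 13.2% of all measured genes were lower and 6.42% higher by 1.5-fold or more. Among 23 measured glycolysis and hypoxia genes the median was -0.70, against -0.31 in the other cells, and 14 were lower by 1.5-fold or more while 0 were higher. The mitophagy receptor gene Bnip3 differed by -1.54, and the oxygen sensor genes Egln3 and Egln1 by -1.91 and -1.44. Of 15 measured suppression genes, 9 were lower and 1 higher (median -0.72 against -0.20). They included Spp1 at -1.31 (899 and 135 UMIs) and Arg1, the arginase 1 gene, with 21 UMIs in DMSO and 0 in Selinexor, at least 2.64-fold lower. The exception was Il4i1, an amino acid oxidase gene, at 0.83. Of 9 measured type I interferon response genes 5 were lower and 0 higher (median -1.002 against -0.44), among them Isg15 with 23 and 0 UMIs.

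The ERK feedback and immediate early list, genes whose transcription follows ERK activity, had 6 of 17 measured genes past the 1.5-fold limit downwards and 0 upwards. Its median was -0.41 in C1q-positive cells and 0.13 in the other cells. Besides Egr1, Fosb differed by -1.14, and Fos and Spred1 by -1.08 each. Dusp6, a phosphatase gene induced by ERK, was at -0.08. Of 28 measured nuclear transport genes, 2 were higher (Xpo1 and Tnpo2) and 4 lower, with a median of 0.14, where 6.42% of all measured genes were higher and 13.2% lower. The importin gene Ipo13 gave 22 and 1 UMIs.

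Monocyte genes were an exception, with 6 of 15 measured genes higher and 2 lower and a median of 0.34 against 0.42 in the other cells. For this and the next lists, 6.42% of all measured genes were higher and 13.2% lower by 1.5-fold or more. The monocyte median was -1.78 without the members holding 5 or more granule UMIs and -0.68 among class II high cells. Vcan differed by 0.94 and Ly6c2, a marker of inflammatory monocytes, by 0.77, while Ly6a differed by -2.32 (246 and 16 UMIs). Alternative activation genes were also split, with 4 of 11 higher and 2 lower. Of 27 measured lysosome genes, 3 were higher (Lgmn, Ctsc and Atp6v0d2) and 0 lower, with a median of -0.01 against 0.38. Efferocytosis genes had a median of -0.12 over 18 genes. Of 26 macrophage and dendritic transcription factors 4 were lower, Maf, Irf1, Irf4 and Runx3, and 2 higher, Id3 and Klf4, with a median of -0.16. Both shares lie near those of all measured genes, 13.2% lower and 6.42% higher.

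**Figure D5:**
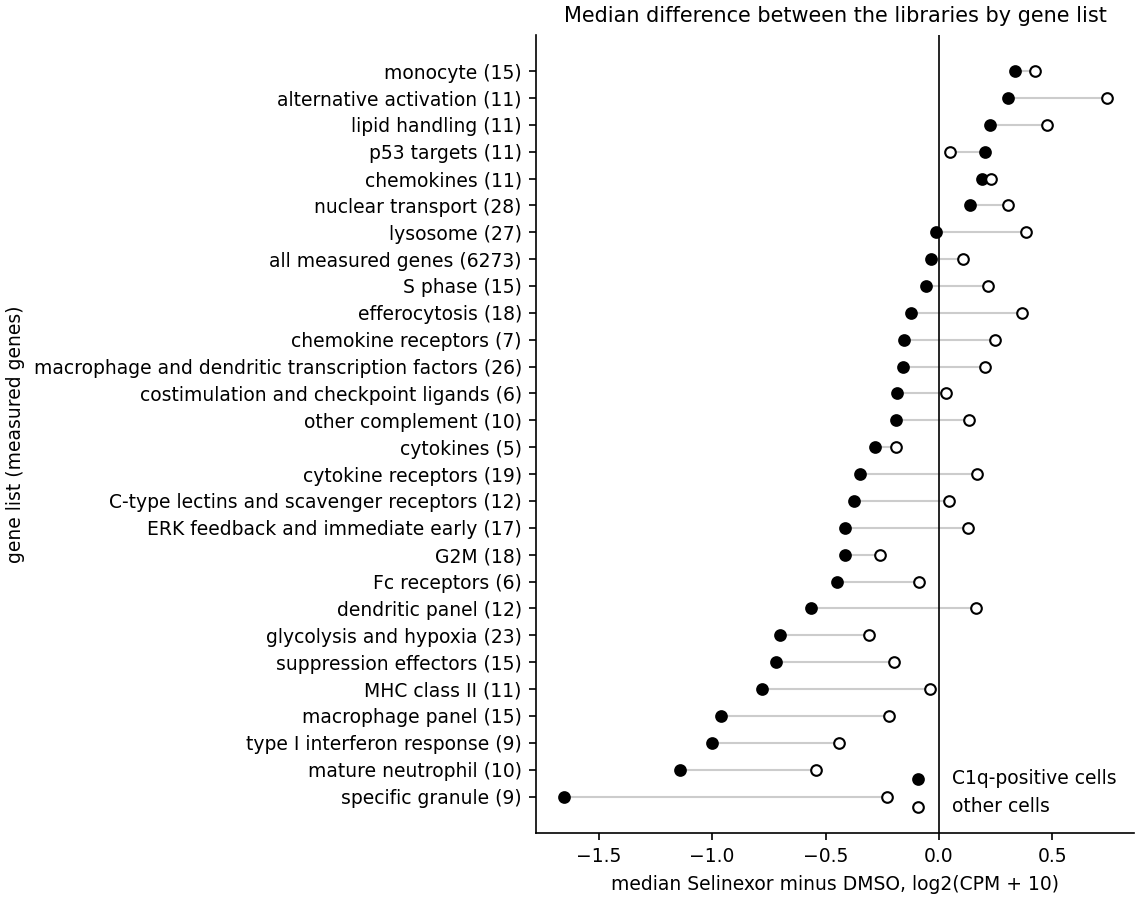
Points give the median Selinexor minus DMSO, log2(CPM + 10), of each list with 5 or more measured genes (number in brackets), filled for C1q-positive cells and open for the other cells. For all 6273 genes the medians are -0.04 and 0.10; the macrophage panel (-0.96) and class II (-0.78) lie well below them in C1q-positive cells and near -0.22 and -0.04 in the other cells.

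Chemokines, cytokine receptors and cycling genes completed the description. Cxcl2, which attracts neutrophils, gave 682 UMIs in DMSO and 52 in Selinexor, a difference of -2.24 against -1.76 in the other cells. Cxcl16, a scavenger receptor and chemokine, differed by -0.81 against 0.72 in the other cells, and it was 3.14 and 1.61 higher in C1q-positive than in other cells. Of 19 measured cytokine receptor genes 6 were lower and 0 higher, among them Il4ra at -1.03 and Il10ra at -0.90. Cells with Mki67 or Top2a UMIs, which mark division, made up 34 of 70 (48.6%) and 12 of 27 (44.4%) C1q-positive cells, against 49.1% and 57.3% of the other cells. Of 18 measured G2M genes 7 were lower and 1 higher, where 13.2% of all measured genes were lower and 6.42% higher.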

How the data were processed

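Single-cell RNA was measured in 2 libraries, 1 DMSO and 1 Selinexor. The deposited matrices hold raw UMI counts per gene and barcode, which the authors produced on mm10 using Cell Ranger 6.1.2, per the submitters' processing notes. Only gene rows entered totals, and tag counts are given as a description. The annotation release and the selection of barcodes were not stated in the sources. Every number in the text was computed from these counts in Python 3.11.15 with numpy 2.4.6, scipy 1.17.1 and pandas 2.3.3.

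Cells were filtered as stated in the report, and counts of C1q-positive and other cells were summed per library, scaled to CPM and compared as log2(CPM + 10). A gene counted as measured with 20 or more UMIs over the cells compared, as called at 2-fold and, for lists, at 1.5-fold. With 1 library per group no test was possible. Poisson, Clopper-Pearson and conditional binomial intervals (95%) cover counting error only, and the ratio code was tested on simulated data. The members, panels and lists were chosen with earlier results of these data known. Named genes are the 5 markers and Xpo1, panel and class II genes, the 15 highest and 10 lowest against the other cells by the weaker of both libraries (50 CPM or more), the 12 highest and 12 lowest between libraries (50 or more UMIs and 50 CPM or more in 1 library, with the direction kept under equal cell weights and without the richest cell) and up to 4 genes of each list. Genes named beyond these, among them the leading genes of the class II high and low cells and Dusp6, were chosen after their values were seen. Mitochondrial, ribosomal protein, haemoglobin, Gm and Rik genes were left out of the ranked names. Alternatives changed the C1q and UMI thresholds, the mitochondrial limit, thinning, weighting, pseudocount, gene floor, scaling (edgeR 4.0.16 TMM in R 4.3.3) and the members included. No doublet caller was run. Members with 5 or more granule UMIs, or the 5% with the most UMIs, were left out as alternatives. These left 8 and 4 members and 66 and 25 members in DMSO and Selinexor, and neither setting tests for doublets. Promoters are RefSeq sequences on GRCm38.p6. Some genes that the lists and the naming rule hold are counted but not reported here.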

Additional observations from a re-analysis of the deposited data

How the results depend on the processing

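Each of 192 alternative values of the main results was compared with its value in the report, and 136 stayed. To stay meant within counting error for shares and panel ratios, within 1.5 times for counts of genes and within 1.5-fold for list medians. By this rule the dendritic panel's median difference between libraries stayed at -0.99 thinned, against -0.56 in the report. Of 2036 values of named genes and other lists, 1757 stayed, 269 moved and 10 reversed. The share of C1q-positive cells was 7.07% in DMSO and 5.41% in Selinexor at a C1q threshold of 1 UMI, 1.27% in Selinexor at 5 UMIs, and 2.87% and 0.507% after thinning to 2000 UMIs. DMSO remained the higher of the libraries in each. The macrophage panel in members minus other cells in DMSO was 1.99 at 3 C1q UMIs, 2.12 with cells weighted equally, 2.04 thinned, 2.11 without cells holding Mki67 or Top2a UMIs and 1.31 without the members holding 5 or more granule UMIs, which left 8 and 4 members. In Selinexor it was 0.16 under the last setting. The dendritic panel in DMSO was 2.27 and 2.30 at 3 and 5 C1q UMIs, 2.89 without granule members, 2.32 without cycling members and 2.30 without members rich in S100a8 and S100a9. In Selinexor it was 1.47 and 1.78 at 3 and 5 C1q UMIs, 3.14 without granule members and 1.68 without cycling members.

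Counts of 2-fold genes moved most. In members against other cells, higher and lower genes in DMSO were 750 and 553 thinned, 1417 and 1607 without granule members, 1309 and 671 with a pseudocount of 1 CPM and 93 and 51 with 50 CPM, and 412 were lower without cycling members. In Selinexor they were 749 and 1758 thinned, 1138 and 2728 without granule members, 743 and 1482 with 1 CPM, 33 and 47 with 50 CPM, 298 and 436 at 5 C1q UMIs and 364 and 700 without cycling members, and 258 were higher with equal weights. Between Selinexor and DMSO members, higher and lower genes were 39 and 135 thinned, 27 and 75 without granule members, 18 and 103 with a gene floor of 50 UMIs, 155 and 476 with 1 CPM, 10 and 41 with 50 CPM, and 96 and 391 among class II high members. Lower genes outnumbered higher genes in each of these settings of that comparison. The pseudocount and the smaller number of members or UMIs set these counts by construction.

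The dendritic panel's median difference between libraries was 0.55 without granule members and -1.60 among class II low members. Among differences of 1.5-fold or more between the libraries, those that reversed were Ccl2 at -0.026 (5 C1q UMIs), Ccl17 at 0.95 and H2-Eb1 at 0.053 (without granule members), H2-Eb1 at 0.038 and Ccn3 at -1.47 (class II high members only), Ccl22 at -0.16 without its richest cells and -2.58 among class II low members, Ngp at 0.082 without cycling members, and the specific granule median at 0.21 without cycling members and 0.13 without members rich in S100a8 and S100a9. Smaller differences that moved and changed sign, among those printed in the report, included Csf1r at 0.76 thinned. The dendritic panel median did so at 0.55 without granule members. The monocyte median did so at -1.78 without granule members and -0.68 among class II high members. The cause was not tested. H2-Eb1 is among the genes that made the class II split, so its value among class II high members is constrained by that split. TMM scaling and centring on the median moved no main result, and the settings on S100 transcripts and class II were chosen after seeing the data. No paired analysis was possible because each group holds 1 library.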
